A study of Mus musculus with 8 samples.

Results

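The chymase locus of the mouse is a run of related serine protease genes on chromosome 14, and 10 of its genes are described here in peritoneal mast cells (PMCs): Cma1, Cma2, Mcpt1, Mcpt2, Mcpt4, Mcpt8, Mcpt9, Ctsg, Gzmb and Gzmc. They were chosen by name, and all 10 were found among the 55359 genes of the table. The samples were 8 untreated PMC cultures derived from wild-type mice on a C57BL/6x129/Sv background. The lines PMC-303 and PMC-306, with 1 library each, had arisen spontaneously in ageing, neglected cultures, and were set beside 6 primary WT PMC cultures, 3 from female and 3 from male mice. The study's karyotypes showed chromosomal aberrations in both lines, and their part in the results was not tested. The labels give no age of the animals. Each line is a single culture, and the lines were grown with less serum and less stem cell factor (SCF) than the primary cultures, so that transformation and medium cannot be told apart in these libraries. A test of the medium that the study made by RT-qPCR was not analysed here.

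Mast cells store serine proteases in their secretory granules, bound to the heparin chains of the proteoglycan serglycin, and release them on activation. Many chymases cleave after aromatic residues, but not all proteases of the locus do. Connective tissue mast cells, to which peritoneal mast cells belong, are known for Cma1 (mouse mast cell protease 5) and Mcpt4 (the protease closest in function to human chymase), whereas Mcpt1 and Mcpt2 are known from mucosal mast cells. Ctsg encodes cathepsin G, which neutrophils also make, Mcpt8 is a basophil protease, and Gzmb and Gzmc encode granzymes, which are best known from cytotoxic lymphocytes. All are made as inactive precursors, from which the dipeptidyl peptidase encoded by Ctsc removes the activation peptide.

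Transcripts were counted after sequencing of stranded total RNA, and the libraries held between 15918757 and 24180226 estimated counts. Levels are given as CPM, counts relative to the scaled size of their library, and 3 counts, the limit that a count of 0 allows, correspond to between 0.123 and 0.187 CPM. The 8 mast cell markers summed to 34963 CPM in PMC-303 and 32299 in PMC-306, where the primary cultures had 38516 to 57499 CPM, and most of the sum came from Cpa3 (23601 and 22835 CPM in the lines). Hdc and Mrgprb2 were low, with at most 42.4 and 13.6 CPM in any library. By limma, 3 of the 8 markers were lower in the lines than in the primary cultures and 5 were not called. Of all genes tested 15.5% were called lower and 18.3% higher. The 3 markers were Kit (-0.88, adjusted p = 0.000885), Fcer1a (-1.36, adjusted p = 0.00309) and Il1rl1 (-0.69, adjusted p = 0.0123), differences on the log2(CPM + 0.1) scale. Their part in the results on the proteases described next was not tested. The call of Il1rl1 was lost without PMC-303 (-0.71, adjusted p = 0.0575) and without PMC-306 (-0.67, adjusted p = 0.0705), and that of Fcer1a with female cultures only (adjusted p = 0.0578). Of 6 neutrophil markers, Elane and S100a8 had 0 counts in all libraries and the sum did not exceed 0.245 CPM. Of 7 markers of NK and T cells, Klrb1c and Gzma had 0 counts in all libraries, and the sum was 2.02 CPM in PMC-303, 1.52 CPM in PMC-306 and at most 1.24 CPM in the primary cultures. The basophil list of 5 genes, which holds Mcpt8 itself, summed to 291 CPM in PMC-303, 309 CPM in PMC-306 and 301 to 614 CPM in primary cultures, most of it from Cd200r3. The basophil protease gene Prss34 had no more than 0.0622 CPM in any library. The macrophage list of 6 genes was at 427 CPM in PMC-306 through Adgre1 alone (426 CPM), against 2.43 CPM in PMC-303 and 5.53 to 64.5 CPM in the primary cultures, while Csf1r, C1qa, C1qb and Cd14 stayed at or below 0.230 CPM in every library. Lyz2, the remaining gene of that list, had 18.0 CPM in female culture 2 and 5.72 CPM in male culture 3, and at most 2.35 CPM elsewhere. These cultures also had the most Adgre1 among the primary cultures (46.4 and 25.3 CPM). In bulk RNA, fewer cells that express a gene and less RNA of it in each cell cannot be told apart.

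On GRCm39 the locus spans 320.8 kb, from 56178908 to 56499717 of chromosome 14, and holds 15 protein-coding genes. In the order of the coordinates the 10 genes are Cma1, Cma2, Mcpt1, Mcpt9, Mcpt2, Mcpt4, Mcpt8, Ctsg, Gzmc and Gzmb, with 5 further granzyme genes between Ctsg and Gzmc. Several are close copies of each other, and reads of close copies can be assigned to the wrong gene. The coding sequences of Cma2 and Mcpt9 were 98.1% identical, those of Mcpt1 and Mcpt4 86.7%, those of Mcpt1 and Mcpt2 81.2% and those of Gzmc and Gzmb 76.2%, while Cma1 reached at most 64.0%, with Mcpt4. Of all stretches of 31 bases in the leading transcript, 49.5% also occurred in another gene for Cma2, 24.3% for Mcpt9, 16.4% for Mcpt4, 14.1% for Gzmc, 10.6% for Cma1, 7.37% for Mcpt2, 6.71% for Mcpt1 and 1.35% for Gzmb, and none did for Mcpt8 and Ctsg. In the restored tables the estimated counts of Cma1, Cma2, Mcpt4 and Mcpt9 were fractional, as when reads are shared out between genes, and those of the other 6 were whole to within 0.0005 counts in every library. The only partner of Cma1 was Gm48934, which had between 6.5 and 19.1 counts. The values of Cma2, Mcpt9 and Mcpt4 are therefore less certain than those of Ctsg, Mcpt8 and Gzmb.

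The copies also share the DNA in front of them. The 150 bases before the start of the leading transcript are shown for Mcpt4, Mcpt2 and Mcpt1, whose upstream stretches are related, and for Ctsg, Cma1 and Gzmb, which were abundant in primary cultures and have unrelated ones. They are written from the strand of the gene on GRCm39, and capitals mark TATAAA, a form of the TATA box, and TGATAA, one of the forms of the motif that GATA factors bind, which reads TTATCA on the other strand.
Mcpt4 (chr14:56299771-56299920, minus strand): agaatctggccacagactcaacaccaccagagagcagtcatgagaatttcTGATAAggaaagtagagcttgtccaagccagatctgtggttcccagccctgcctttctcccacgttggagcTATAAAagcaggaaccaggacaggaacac
Mcpt2 (chr14:56279348-56279497, plus strand): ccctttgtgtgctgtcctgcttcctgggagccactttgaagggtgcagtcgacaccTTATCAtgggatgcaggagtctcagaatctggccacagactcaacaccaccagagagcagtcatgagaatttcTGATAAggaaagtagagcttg
Mcpt1 (chr14:56255278-56255427, plus strand): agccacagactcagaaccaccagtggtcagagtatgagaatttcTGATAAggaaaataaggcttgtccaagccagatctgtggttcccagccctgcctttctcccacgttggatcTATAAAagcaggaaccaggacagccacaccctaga
Ctsg (chr14:56340032-56340181, minus strand): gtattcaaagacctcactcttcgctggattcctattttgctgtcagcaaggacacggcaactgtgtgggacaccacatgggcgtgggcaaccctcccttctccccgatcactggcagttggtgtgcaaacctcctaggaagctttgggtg
Cma1 (chr14:56182133-56182282, minus strand): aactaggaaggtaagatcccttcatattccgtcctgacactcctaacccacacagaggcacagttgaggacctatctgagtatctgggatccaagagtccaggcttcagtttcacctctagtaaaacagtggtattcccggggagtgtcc
Gzmb (chr14:56499718-56499867, minus strand): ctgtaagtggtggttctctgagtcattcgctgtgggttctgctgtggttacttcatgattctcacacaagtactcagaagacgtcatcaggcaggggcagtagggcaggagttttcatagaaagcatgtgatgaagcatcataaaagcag

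Mcpt4 and Mcpt2 share an unbroken run of 74 bases, of which the lines shown hold 71. It ends at the base before the start of Mcpt2 and 80 bases before the start of Mcpt4 and holds TGATAA. Only the 250 bases before each start were searched, so that the run may continue past the start of Mcpt2. The TATAAA of Mcpt4 lies nearer to its start than this run, so that the matching place of Mcpt2 was not searched. Mcpt1 and Mcpt4 share an unbroken run of 53 bases, and their 250 bases upstream were 81.7% identical when aligned end to end. By the same measure Mcpt2 and Mcpt4 were only 48.2% identical and Mcpt1 and Mcpt2 40.7%. Cma1 reached at most 51.6% with any of the other 9 genes, with Mcpt2. The measure thus misses runs that lie at different distances from the starts. TGATAA, searched on both strands of 250 bases, was found before 4 of the 10 genes (Cma2, Mcpt1, Mcpt2 and Mcpt4) and in 7.63% of 21593 windows of the same length before protein-coding genes. TATAAA was found before Mcpt1, Mcpt4 and Ctsg, that of Ctsg on the opposite strand 237 to 232 bases before the start, and in 11.9% of all windows. AGATAA was found before none of the 10 and in 9.58% of windows. CACATG, an E-box, was found before Ctsg, Gzmc and Gzmb and in 10.4% of windows, and TTCNNNGAA, the form bound by STAT factors, before Ctsg and Gzmb and in 7.71%. The copies are not independent, and a match describes the letters only.

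Cma1 made up most of the transcripts of the locus in every library. On the TPM scale, which corrects for transcript length as well as library size, Cma1 was at 11405 ± 3036 TPM (SD, n = 6) in the primary cultures, the seventh most abundant of all genes by the mean, and at 9737 TPM in PMC-303 and 9373 TPM in PMC-306. Among the other genes the primary means followed in the order Gzmb with 482 ± 131 TPM, Ctsg with 402 ± 153 TPM, Mcpt4 with 245 ± 181 TPM and Mcpt2 with 118 ± 53.6 TPM (SD, n = 6 for each). In this order neighbours differed by less than the larger of their SDs. Far below them were Cma2 with 12.7 ± 5.15 TPM, Mcpt8 with 4.03 ± 0.856 TPM and Mcpt1 with 2.28 ± 1.74 TPM (SD, n = 6 for each). Gzmc and Mcpt9 were lowest, with means of 0.0843 and 0.0202 TPM.

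The make-up of the locus differed between the lines and the primary cultures. Cma1 accounted for between 86.2% and 92.6% of the summed TPM of the 10 genes in the primary cultures, for 98.4% in PMC-303 and for 97.5% in PMC-306. The other 9 genes together summed to between 870 and 1675 TPM in the primary cultures, to 162 TPM in PMC-303 and to 238 TPM in PMC-306. In PMC-303 the second gene was Gzmb with 101 TPM and the next Cma2 with 45.7 TPM, and in PMC-306 they were Gzmb with 189 TPM and Cma2 with 25.7 TPM. These shares describe single libraries of the lines and were not tested.

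**Figure D1:**
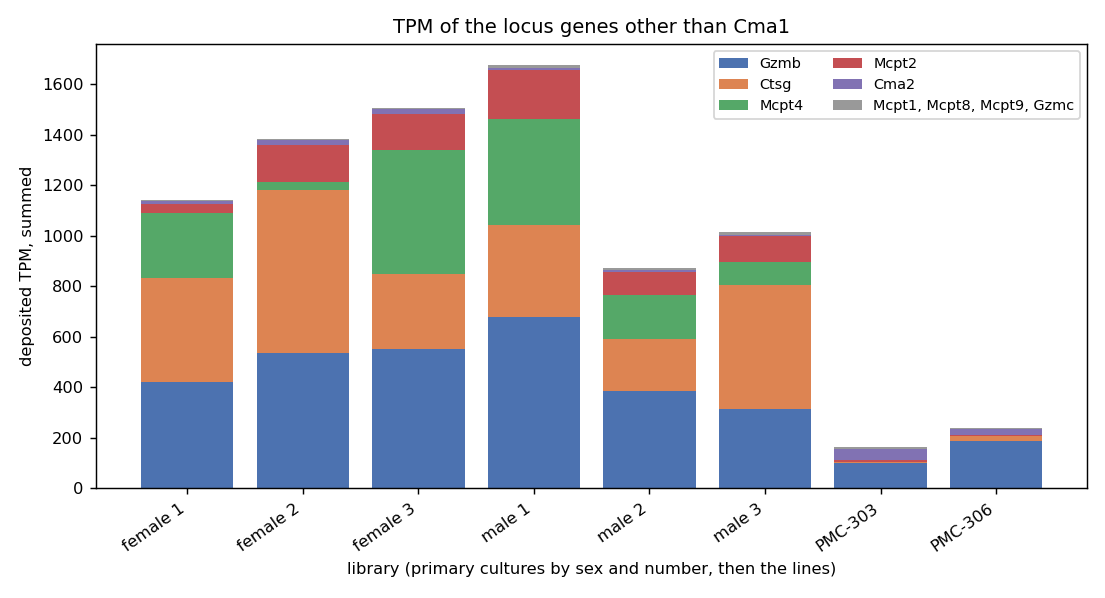
Deposited TPM of the locus genes other than Cma1 in each library, stacked by gene, with the 6 primary cultures on the left and the lines on the right. The primary cultures reach between 870 and 1675 TPM, mostly from Gzmb, Ctsg, Mcpt4 and Mcpt2, and the lines reach 162 and 238 TPM, mostly from Gzmb and Cma2.

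Both lines were then compared with the primary cultures on the log2(CPM + 0.1) scale, to ask which proteases the lines had kept. Mcpt4, Mcpt2, Ctsg and Gzmb were lower, Cma2 was higher, and Cma1, Mcpt1 and Mcpt8 did not pass the test. Mcpt9 and Gzmc had too few counts to be tested, so that 8 of the 10 genes entered the fit. With limma across 14525 genes, 5 of the 8 were called (33.8% of all genes tested) at an adjusted p under 0.05. Of these 4 were lower and 1 was higher, where 15.5% of all genes tested were called lower and 18.3% higher. Without scaling beyond the library totals, the calls of all genes shifted from 2659 higher and 2254 lower to 3400 higher and 1665 lower, and the median difference of all genes from -0.01 to 0.10, but 4 genes of the locus were still lower and 1 higher. The median difference was -2.01 over the 8 genes tested and -0.01 over all genes. Both libraries of the lines lay below every primary culture for 5 of the 8 genes (20.1% of all genes tested) and above every primary culture for Cma2 (22.9%). Taken singly, PMC-303 lay below all primary cultures for 5 of 8 genes and PMC-306 for 7 of 8, where 30.2% and 32.8% of all genes with at least 1 CPM did so. On values of CPM + 0.1 each line was at least 10-fold below the primary mean for 3 of 8 genes, Mcpt2, Mcpt4 and Ctsg, where 1.88% of such genes in PMC-303 and 2.17% in PMC-306 were.

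**Figure D2:**
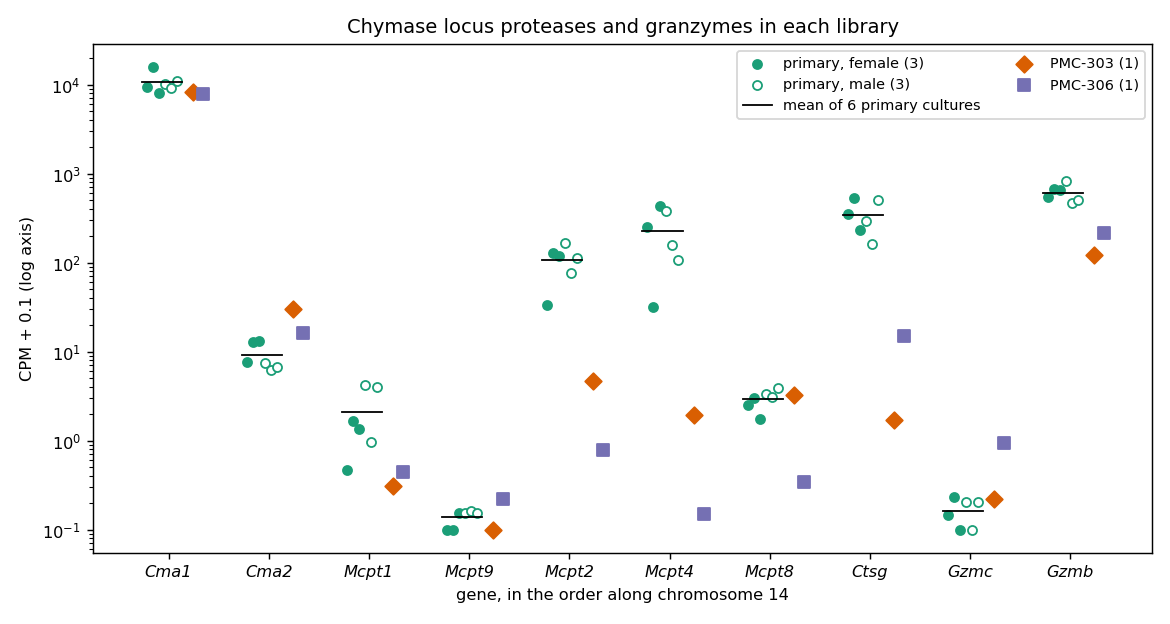
CPM + 0.1 on a log axis for the 10 genes in each of the 8 libraries, with filled circles for female and open circles for male primary cultures, a bar at the mean of the 6, a diamond for PMC-303 and a square for PMC-306. Mcpt2, Mcpt4 and Ctsg lie far below all primary cultures in both lines, with Mcpt2 and Mcpt4 lowest in PMC-306 and Ctsg lowest in PMC-303.

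Mcpt4, the main chymase of connective tissue mast cells, varied most among the primary cultures and was almost absent from PMC-306. The female cultures 1 to 3 had 250, 31.6 and 434 CPM, the male cultures 1 to 3 had 380, 158 and 107 CPM, PMC-303 had 1.85 CPM and PMC-306 had 0.0492 CPM. The highest primary culture was 13.7 times the lowest, and both lines lay below all of them. The lowest pair, female culture 2 and male culture 3, were also the cultures with the most Lyz2 and Adgre1, whose part in this was not tested. The difference between the lines and the primary cultures was -8.76 without the first and -8.41 without the second (adjusted p of 0.000759 and 0.00242 by limma). PMC-303 held 45.0 counts, which places the primary mean of 227 ± 158 CPM (SD, n = 6) 122 times higher, with an exact 95% Poisson interval for counting error alone from 91.4 to 168. PMC-306 held 1 count, a ratio of 4610 with an interval from 828 to 181610. The limma difference of both lines was -8.28 ± 1.15 (SE), with an adjusted p of 0.000997. With limma voom, which weights each count by its precision, the difference was -8.67 and the adjusted p 0.161, so that the call was lost, while the adjusted p of Mcpt4 stayed under 0.05 in the other alternatives tried.

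Mcpt2, a close relative with little known enzyme activity that is best known from mucosal mast cells, was also abundant in these primary cultures. The female cultures 1 to 3 had 33.4, 129 and 120 CPM, the male cultures 1 to 3 had 164, 76.9 and 113 CPM, PMC-303 had 4.57 CPM and PMC-306 had 0.687 CPM. Female culture 1 was the lowest primary culture and still far above PMC-303. The primary mean of 106 ± 45.2 CPM (SD, n = 6) was 23.2 times the level of PMC-303, with a counting interval from 19.3 to 28.2, and 154 times that of PMC-306, with an interval from 91.9 to 282. In the test of both lines the difference was -5.63 ± 0.72 (SE), with an adjusted p of 0.000696 by limma. Female culture 2, which had the least Mcpt4, was second highest for Mcpt2, and female culture 1, which had the least Mcpt2, was in the upper part of the range for Mcpt4.

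Mcpt1, the mucosal mast cell chymase whose upstream stretch is nearest to that of Mcpt4, was near the limit of detection in the lines. The primary cultures ranged from 0.367 CPM in female culture 1 to 4.09 CPM in male culture 1, with a median of 1.42 CPM. PMC-303 had 5 counts (0.206 CPM, counting interval 0.0668 to 0.480) and PMC-306 had 7 counts (0.344 CPM, counting interval 0.138 to 0.708), so that both were below the lowest primary culture, which lay inside both intervals. The difference was -2.13 ± 0.80 (SE), with a 95% interval from -3.96 to -0.31 and an adjusted p of 0.0716 by limma, which missed the threshold. Without female culture 1 the difference was -2.49 and passed it, with an adjusted p of 0.0231.

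Ctsg, the cathepsin G gene, fell in both lines, and here PMC-303 was the lower. The female cultures 1 to 3 had 348, 528 and 233 CPM, the male cultures 1 to 3 had 292, 163 and 510 CPM, PMC-303 had 1.60 CPM and PMC-306 had 14.9 CPM. No library of a line came within 10-fold of a primary culture. The primary mean of 346 ± 148 CPM (SD, n = 6) was 215 times the level of PMC-303, with a counting interval from 157.5 to 302.7, and 23.2 times that of PMC-306, with an interval from 20.7 to 26.0. The difference of both lines was -5.97 ± 0.75 (SE), with an adjusted p of 0.000615 by limma. None of the 31-base stretches of Ctsg occurred in another gene, and its counts were whole, to within 0.0005, in every library.

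Gzmb, the gene of granzyme B, kept more of its level than these. The primary cultures ranged from 470 CPM in male culture 2 to 826 CPM in male culture 1, with a median of 602 CPM, and Gzmb was among the steadiest genes of the locus, with a highest primary culture only 1.76 times the lowest. PMC-303 had 120 CPM and PMC-306 had 217 CPM, both below every primary culture. The difference was -1.89 ± 0.26 (SE), with an adjusted p of 0.000995 by limma. The other granzyme of the list, Gzmc, had 17 counts in PMC-306 (0.835 CPM, counting interval 0.486 to 1.34), 3 counts in PMC-303 and between 0 and 3 counts in each primary culture. PMC-306 was the only library above the limit of 3 counts for Gzmc, and with so few counts the gene was not tested.

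Cma1 was kept in both lines. The primary cultures ranged from 8066 CPM in female culture 3 to 15696 CPM in female culture 2, with a median of 9752 CPM. PMC-303 had 8332 CPM, within this range, and PMC-306 had 7757 CPM, just below it. The difference of both lines was -0.36 ± 0.27 (SE), with a 95% interval from -0.98 to 0.26 and an adjusted p of 0.340 by limma. The table splits the counts of Cma1 between 2 transcripts, but the annotation gives both the same exons, so that their separate values cannot be interpreted.

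Cma2, the neighbour of Cma1, was the gene of the locus that rose. The female cultures 1 to 3 had 7.64, 12.8 and 13.2 CPM, the male cultures 1 to 3 had 7.42, 6.17 and 6.69 CPM, PMC-303 had 30.1 CPM and PMC-306 had 16.3 CPM. Both lines were above all primary cultures. The difference was 1.36 ± 0.35 (SE), with an adjusted p of 0.0188 by limma. The call was lost without PMC-303 (0.92, adjusted p = 0.156) and when only the female cultures, which include both of the higher primary values, served as the control (1.02, adjusted p = 0.123).

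Reads of Cma2 were assigned to 2 annotated transcripts whose starts lie 20448 bases apart. Across the libraries 83.6% of the counts went to the transcript ENSMUST00000228263 that starts at 56188437, on the side of Cma1, and 16.4% to ENSMUST00000089555 that starts at 56208885. The first had 26.3 CPM in PMC-303 and 14.8 in PMC-306, against a primary mean of 7.07 ± 2.97 CPM (SD, n = 6), a difference of 1.56 ± 0.40 (SE), with an adjusted p of 0.0448 in the limma fit across 45032 transcripts. The second had 3.79 CPM in PMC-303 and 1.47 in PMC-306, against a primary mean of 1.91 ± 0.400 CPM (SD, n = 6), a difference of 0.32 ± 0.37 (SE), with an adjusted p of 0.643 by limma. The difference between the transcripts was not tested, and the estimate shares reads between them. Of the 14 transcripts of the 10 genes 11 were tested, and 5 were lower and 1 was higher, where 4.92% and 5.45% of all transcripts were called lower and higher. Mcpt9, whose coding sequence is nearly that of Cma2, had at most 2.5 counts in any library.

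Mcpt8, the basophil protease, separated the lines. The primary cultures ranged from 1.63 CPM in female culture 3 to 3.78 CPM in male culture 3, with a median of 2.94 CPM. PMC-303 had 77 counts (3.17 CPM, counting interval 2.50 to 3.96), within the primary range, and PMC-306 had 5 counts (0.245 CPM, counting interval 0.0797 to 0.573), below all of them. The test of both lines gave -1.42 ± 0.71 (SE) and an adjusted p of 0.159 by limma. Without PMC-303 the difference was -3.04 with an adjusted p of 0.00215, and without PMC-306 it was 0.20 with an adjusted p of 0.747, in fits that assume the remaining line to vary like the primary cultures.

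The lines thus had different profiles over the locus. On the log2(CPM + 0.1) scale PMC-306 was lower than PMC-303 by 3.71 for Mcpt4, by 3.24 for Mcpt8 and by 2.57 for Mcpt2, and higher by 3.14 for Ctsg and by 0.85 for Gzmb. For Mcpt2, Mcpt8, Ctsg and Gzmb this gap exceeded the largest gap between any pair of primary cultures, which was 2.29 for Mcpt2, 1.16 for Mcpt8, 1.69 for Ctsg and 0.81 for Gzmb. For Mcpt4 it did not, as primary cultures lay up to 3.77 apart. These 4 of 8 genes stand beside 27.9% of all genes with at least 1 CPM whose lines were further apart than any pair of primary cultures. With 1 library per line the gaps have no replicate check.

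**Figure D3:**
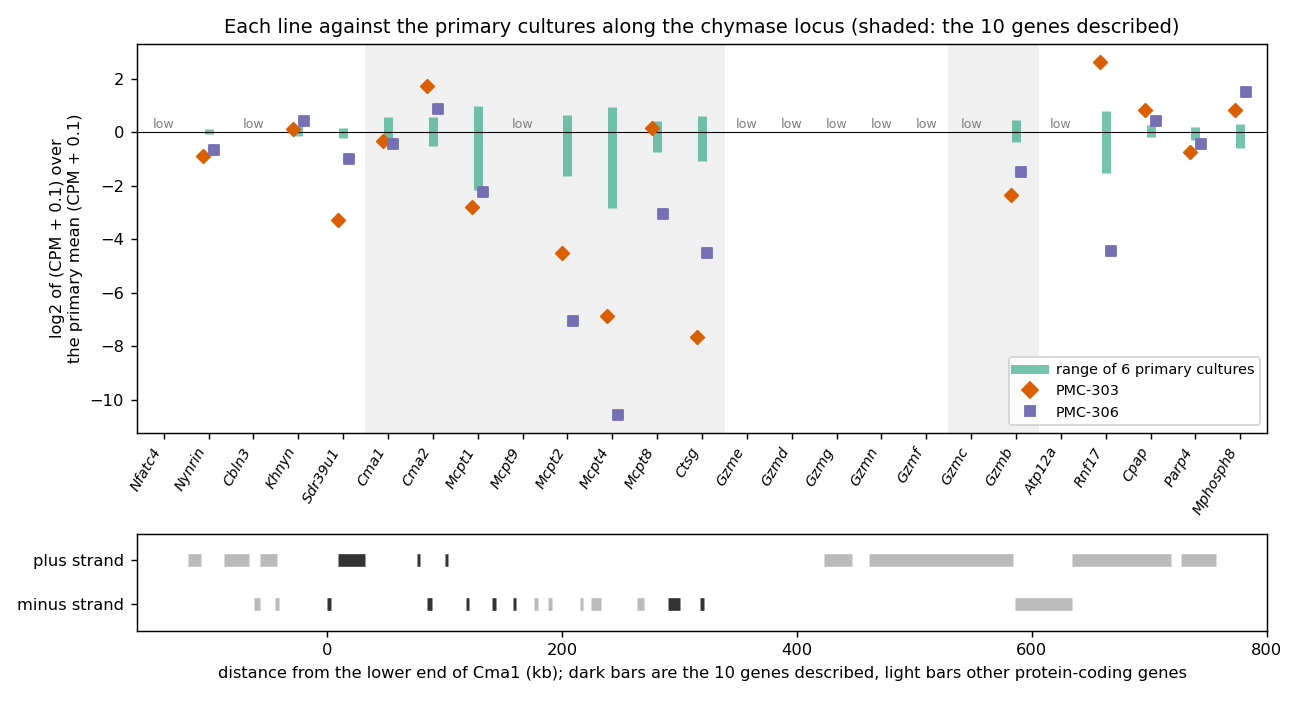
Upper panel: log2 ratio of CPM + 0.1 in PMC-303 (diamonds) and PMC-306 (squares) to the primary mean, for the genes of the locus and the 5 protein-coding genes on either side, with green bars for the range of the 6 primary cultures and "low" for genes not tested. Lower panel: position and strand of the same genes in kb. Mcpt2, Mcpt4 and Ctsg, in the middle of the locus, lie lowest, with Mcpt8 at 0.16 in PMC-303 and -3.08 in PMC-306 between them, and Cma1 and Cma2 near or above 0.

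Along the chromosome the direction changed within short distances. Cma2 was higher and Cma1 within or just below the primary range at one end, Mcpt1, Mcpt2, Mcpt4 and Ctsg were below all primary cultures in both lines, and Mcpt8, between Mcpt4 and Ctsg, was within the primary range in PMC-303. The granzyme genes Gzmd, Gzme, Gzmf, Gzmg and Gzmn, between Ctsg and Gzmc, had 0 counts in both lines and at most 17 counts in a primary culture, reached by Gzme, and Gzmg and Gzmn had 0 counts in all libraries. The nearest flanking gene beyond Cma1, Sdr39u1, was lower as well (-2.14 ± 0.48, SE, adjusted p = 0.00940 by limma), mainly in PMC-303, which had 1.24 CPM where PMC-306 had 6.53 and primary cultures 13.1 ± 1.28 CPM (SD, n = 6). Its difference was -0.98 without PMC-303 and -3.30 without PMC-306, and the call was lost with female or male cultures only (adjusted p = 0.0903 and 0.0813). Of the 10 flanking genes 7 were tested, 3 were lower (Nynrin, Sdr39u1 and Parp4) and 2 higher (Cpap and Mphosph8), with a median difference of -0.53, where 15.5% of all genes tested were lower and 18.3% higher. The calls of Parp4, Cpap and Mphosph8 were lost in 3 of 17 alternatives each, among them Parp4 (-0.45, adjusted p = 0.0986) and Cpap (0.44, adjusted p = 0.108) without PMC-303, and Mphosph8 (0.86, adjusted p = 0.0965) without PMC-306. Rnf17, beyond Gzmb, had 20.1 CPM in PMC-303, 0.0491 CPM in PMC-306 and 1.01 to 5.48 CPM in the primary cultures. Gzma and Gzmk, granzyme genes elsewhere in the genome, had 0 counts in all libraries, and Gzmm was not called (-0.49, adjusted p = 0.285 by limma).

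Sex was compared within the primary cultures. None of the 8 genes tested was called between the 3 female and the 3 male cultures by limma, where 0.0438% of 13693 genes were called (6 genes) and 457 (3.34%) had an unadjusted p under 0.05. Of the genes of the locus only Cma2 was among these 457, with 11.2 ± 3.08 CPM in female and 6.76 ± 0.628 CPM in male cultures (SD, n = 3 each), a difference of 0.68 ± 0.23 (SE), with an adjusted p of 1 by limma. The intervals of the other differences remained wide, from -2.65 to 2.06 for Mcpt4 and from -3.05 to 0.43 for Mcpt1, so that no statement on equal levels can be made for them. Between cultures of 1 sex Mcpt4 differed up to 13.7-fold, more than between the means of the sexes, which were 239 and 215 CPM.

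The genes of processing and storage were read from a list of 8. Ctsc, which activates the proenzymes of the locus, was at 564 CPM in PMC-303 and 992 in PMC-306, against a primary mean of 175 ± 101 CPM (SD, n = 6), a difference of 2.24 ± 0.43 (SE), with an adjusted p of 0.00505 by limma. It was called higher, opposite to Mcpt2, Mcpt4, Ctsg and Gzmb, but not when only female cultures served as the control (1.97, adjusted p = 0.0691). Srgn, the serglycin core protein, and Ndst2, the sulfotransferase needed for mast cell heparin, did not pass the test, with differences of -0.22 (95% interval from -0.72 to 0.27) and 0.04 (95% interval from -0.28 to 0.36) and adjusted p of 0.466 and 0.852 by limma. Of the list 2 were higher (Ctsc and Ext1), 3 lower (Hs6st1 and the tryptase genes Tpsab1 and Tpsb2) and 3 not called (Srgn, Ndst2 and Cpa3), where 18.3% of all genes tested were higher and 15.5% lower. The call of Tpsab1 (-3.17, adjusted p = 0.0254) was lost in 4 of 17 alternatives, among them without PMC-306 (-1.63, adjusted p = 0.222), and that of Hs6st1 (-0.92, adjusted p = 0.0104) in 3, among them without PMC-306 (-0.49, adjusted p = 0.0713). Ext1, a heparan sulfate polymerase, had an adjusted p of 0.0417, and its call was lost in 9 of 17 alternatives, among them without PMC-303 (0.58, adjusted p = 0.322) and without any 1 of 5 primary cultures.

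Among 8 protease inhibitors 6 were tested and only Serpina3g was called, where 33.8% of all genes tested were called. Serpina3g was lower, at 7.99 CPM in PMC-303 and 1.92 in PMC-306, against a primary mean of 102 ± 61.2 CPM (SD, n = 6) (-4.41 ± 0.72, SE, adjusted p = 0.00221 by limma). Serpinb9, an inhibitor of granzyme B, was at 30.0 and 32.1 CPM in the lines and 38.9 ± 9.68 CPM (SD, n = 6) in the primary cultures and was not called (-0.29, adjusted p = 0.338 by limma). Of 9 transcription factors of mast cells 8 were tested, Runx1, Stat5b and Smad3 were lower, and Hes1 was higher, where 33.8% of all genes tested were called. Mitf and Gata2, which are known to drive mast cell protease genes, were not called, with differences of 0.16 ± 0.08 and 0.13 ± 0.10 (SE) and adjusted p of 0.177 and 0.319 by limma. Gata1 was at 143 CPM in PMC-303, above all primary cultures, and at 58.7 CPM in PMC-306, below all of them, where the primary cultures had 115 ± 8.83 CPM (SD, n = 6). The call of Stat5b was lost in 9 of 17 alternatives, among them without PMC-306 (-0.25, adjusted p = 0.235) and without any 1 of 3 primary cultures. That of Smad3 was lost in 5, among them without PMC-303 (-0.98, adjusted p = 0.176). Those of Runx1 and Hes1 were lost in 2 each, with female cultures only and without PMC-306 (-0.47, adjusted p = 0.0857, and 0.59, adjusted p = 0.18).

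**Figure D4:**
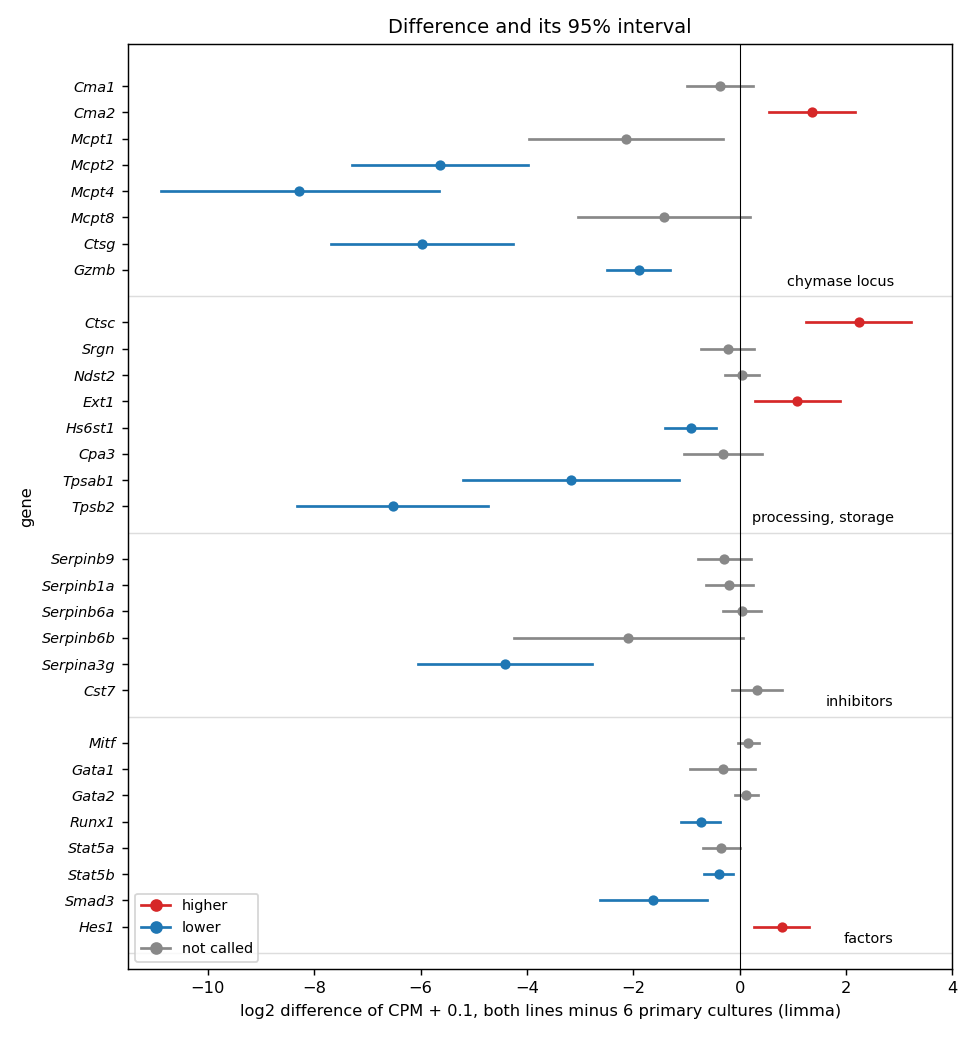
Differences of both lines minus the primary cultures on the log2(CPM + 0.1) scale from limma, with 95% intervals, for the tested genes of the locus and of the lists for processing and storage, inhibitors and transcription factors. Red marks genes called higher, blue lower and grey not called. Mcpt4 lies lowest at -8.28 and Ctsc highest at 2.24.

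The genes whose pattern over the 8 libraries was nearest to that of each gene were found by the mean absolute difference of centred log2(CPM + 0.1) values over the 12590 genes that averaged 1 CPM or more. Nearest to Cma1 were Sil1 (0.070), Dnajb4 (0.086) and the mast cell carboxypeptidase gene Cpa3 (0.092). Nearest to Gzmb were Nckap5l (0.228), Tgfbr1 (0.230) and Trp53inp1 (0.234). Mcpt2 was nearest to Arhgap5 (0.378), Xlr4b (0.476) and Arhgef5 (0.548), Ctsg to 2610507I01Rik (0.704), Sorbs3 (0.745) and Apobr (0.747), and Cma2 to Gm15742 (0.200), 1500026H17Rik (0.209) and Polg (0.215). Mcpt4 had the least similar neighbours, Rnase6 (0.913), Tmem233 (1.05) and Vill (1.11). Within the locus the nearest pair was Cma1 and Gzmb (0.590). Mcpt2 and Mcpt4, which share the run of 74 bases, were 1.60 apart. Mcpt2 was still the nearest gene of the locus to Mcpt4, followed by Ctsg (2.115), while Mcpt2 itself was nearer to Ctsg (1.30). This distance grows with the size of the changes, so that genes that changed little lie near each other. All values share the same 8 libraries, and the distances describe these libraries only.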

How the data were processed

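RNA of 8 PMC cultures was analysed. The labels named each line and gave the sex and replicate number of each primary culture. They gave no sex for the lines, and the study's karyotype of PMC-306 was male. The authors prepared TruSeq stranded total RNA libraries and, per the submitters' processing notes and the study's methods, trimmed reads with Trim Galore 0.6.7, aligned them to GRCm39 with STAR 2.7.9a and quantified them with Salmon 1.5.2. The tables the authors deposited hold estimated counts, without normalization, for genes and for transcripts, and TPM for genes, in which transcript length and sequencing depth are corrected for. A spreadsheet program had altered these deposited tables and rewrote 3.37% of gene count cells, 3.22% of transcript count cells and 20.8% of TPM cells as dates or with additional points. These were set back to numbers, with the reading of ambiguous cells chosen so that genes matched the sum of their transcripts, and 757 count cells were left with a second possible reading that differed by at most 0.81 counts. For 9383 TPM cells the decimal point was placed by comparison with the counts, and TPM and counts are not independent there. Because of the rewritten cells, the tables were not treated as raw count tables, and tests were made on log values.

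Counts were scaled to CPM with TMM factors over all 8 libraries. Both lines were tested against the 6 primary cultures, and among these the female against the male ones, with limma 3.58.1 in R 4.3.3 on log2(CPM + 0.1), with trend-adjusted variances and p-values adjusted by Benjamini-Hochberg, for genes with about 10 counts in enough libraries (2 for the lines, 3 for the sexes) and 15 in total. Folds on this scale understate the change of low genes. A single line was compared with the primary range without a test, and exact Poisson intervals at 95% cover counting error only. The labels call the primary cultures biological replicates. All pairs of them differed by more than sampling noise (chi-square of 19.1 to 62.5 per degree of freedom), so each was counted as 1 sample. On simulated libraries with 200 changed genes the test found 50 of 50 genes at each fold (4, 16, 0.25 and 0.0625). It made 9 false calls among 14525 genes for the lines and 8 among 13693 for the sexes. Smaller changes were not tested. Recovery of genes that vary between primary cultures as Mcpt1 and Mcpt4 do was not tested either, and Mcpt1 itself was not called at -2.13. Nor was that of genes that differ between the lines as Mcpt8 and Ctsg do. Other scalings, offsets, filters and weights were tried, as well as fits without each of the libraries.

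Genes named are the 10 of the locus, the other granzymes, lists for processing and storage, inhibitors and transcription factors, 5 flanking genes on each side, and the 3 nearest patterns for each gene of at least 10 CPM. The genes and lists were chosen with earlier results of these data known. Gene models came from GENCODE M39 on GRCm39, and Cpap carries its older name Cenpj in the table. Mcptl was not used here. Upstream sequences were read from the GRCm39 genome before the start of the leading transcript, which for Cma2 is not the canonical one. Python 3.11.15 with numpy 2.4.6, pandas 2.3.3, scipy 1.17.1 and Biopython was used outside limma. The RT-qPCR and protein data of the study were not analysed here.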

Additional observations from a re-analysis of the deposited data

Results flagged for a closer look

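No primary culture stood apart for any of the 10 genes of the locus when the gap of the highest or lowest culture was set against the range of all 6. Among 39 genes searched, which include the tested genes of the lists and the flanks, 3 had such a culture, where chance gives about 1 in 20, and in each it was female culture 3. It had 378 CPM of Ctsc, where the next culture had 158 CPM, 14.9 CPM of Ext1, where the next had 8.92 CPM, and 243 CPM of Mitf, where the next had 214 CPM. Without this culture, 4 of the 8 tested genes of the locus were still lower in the lines and 1 was higher. The difference of Ctsc was then 2.49 (adjusted p = 0.000373 by limma), and with female cultures only it was 1.97 (adjusted p = 0.0691).

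For 2 genes, PMC-303 lay above all primary cultures and PMC-306 below all of them. The log2 ratio to the primary mean was 0.32 in PMC-303 and -0.97 in PMC-306 for Gata1, and 2.63 and -4.45 for Rnf17, the second gene beyond Gzmb. With 1 library per line this difference was not tested.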

How the results depend on the processing

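The comparison of the lines was repeated under 17 alternatives. Cma1, Mcpt2, Ctsg and Gzmb kept their direction and their side of the threshold in all of them, with Mcpt2 between -6.92 and -4.35, Ctsg between -7.54 and -4.40, and Gzmb between -2.32 and -1.47. The count of genes called fell from 4913 to 2108 with female and 3007 with male primary cultures only, where fewer samples enter, and ranged from 3834 to 4647 when 1 library was left out. The count of locus genes called higher was 0 with female cultures only and between 0 and 1 when 1 library was left out, and that of genes called lower between 4 and 5, and 3 with voom. Deposited TPM shifted the calls to 70.7% higher, against 54.1%, and the median of all genes to 0.13.

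Signs turned for Mcpt8 (from -3.04 to 0.20 when 1 library was left out), Gata1 (-0.96 to 0.32) and Rnf17 (-4.07 to 3.01), each without PMC-306. Rnf17 also turned with an offset of 0.5 CPM (0.16), of 1 CPM (0.39) and with TPM (0.29). Ndst2 turned with female cultures only (-0.04) and ranged from -0.01 to 0.10 when 1 library was left out, and Serpinb6a turned with male cultures only (-0.01) and ranged from -0.07 to 0.16. The cause was not tested.

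In the comparison of sexes, without a call, the differences when 1 culture was left out ranged from -0.21 to 0.27 for Cma1, from -0.83 to 0.14 for Mcpt2, from -1.06 to 0.83 for Mcpt4, from -0.14 to 0.68 for Ctsg and from -0.04 to 0.36 for Gzmb. With the replicate block 5 genes were called in place of 6 and none of the locus. Deviations of same-numbered female and male cultures correlated at 0.404, -0.218 and 0.282, so that the numbers were not taken to pair the cultures.

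Larger offsets moved the ratios of the lowest genes, that of Mcpt4 in PMC-306 from -10.57 to -7.76 with an offset of 1 CPM. Counts of 3 or fewer, in all libraries for Mcpt9 and in all but PMC-306 for Gzmc, limit what can be said of these genes, and with 1 library per line no gap between the lines can be tested.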
